A study of Mus musculus with 17 samples.

Results

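The genes described here encode 10 components of bone morphogenetic protein (BMP) and transforming growth factor β (TGF-β) signalling, out of 21938 protein-coding genes annotated on the assembled mouse chromosomes. They were taken as a fixed list of names and comprised the ligands Bmp4 and Bmp7, the receptors Bmpr1a, Bmpr1b, Acvr1 and Tgfbr2, the receptor-regulated Smad1 and Smad5, the common mediator Smad4 and the inhibitory Smad6. For each gene, the islands of the histone variant H3.3 that overlapped the gene body and 5 kb on each side were collected in every library. H3.3 is a variant of histone H3 that is placed into chromatin outside of DNA replication, mostly where genes are transcribed and regulated.

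BMP and TGF-β ligands are secreted proteins that bring together type I and type II receptor kinases at the cell surface. BMP receptors phosphorylate Smad1 and Smad5, TGF-β receptors act mainly through Smad2 and Smad3, and both groups of Smads enter the nucleus with Smad4, whereas Smad6 is itself a BMP target that restrains the BMP branch. In the lens, BMP signals are known to be needed for induction from the surface ectoderm and for early fiber differentiation, and TGF-β is known for turning lens epithelium into fibrotic cells in cataract.

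The lens is a pure epithelial organ, in which a sheet of dividing epithelium covers a mass of elongated, postmitotic fibers. Both compartments were microdissected from newborn lenses of CD1 mice, and chromatin of each was precipitated with an antibody against H3.3, with 2 biological replicates per compartment. The sample titles give day 1 after birth and the protocol gives day 0.5, and the labels state pools of 150 lenses per sample, a number on which the Methods differ. The labels name no engineered allele and no treatment in any group. Because each library is a pool of tissue, a locus with H3.3 in more of the cells and a locus with more H3.3 in each cell cannot be told apart.

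Islands are stretches enriched in reads over the background. The authors called them library by library, and the 4 lists hold 10389 and 14434 islands in epithelium and 27059 and 35940 in fiber. These islands covered 1.66% and 1.79% of the genome in epithelium and 6.52% and 6.89% in fiber, on average 3.88 times as much in fiber as in epithelium, so that any gene was more likely to be covered there. Their median read density hardly differed, at 28.1 to 28.3 reads per kb in epithelium and 27.4 to 27.5 reads per kb in fiber. Sequencing depth is not known, the part of it in the wider coverage of fiber was not tested, and a gene without an island is described as having none called. All 9 lens fiber markers were covered more in both fiber libraries, with a sum of covered shares over the list of 219 to 322 percentage points in epithelium and 873 to 880 in fiber. Of 4 lens epithelium markers, 3 were also covered more in fiber and none less, with sums of 99.7 to 176 in epithelium and 224 to 239 in fiber. Of 10 markers of cornea, retina, vessel, blood and pigment cells, 4 were covered more in fiber, with sums of 16.6 to 30.9 in epithelium and 75.6 to 76.5 in fiber, and 5 had no island in any library (Krt12, Crx, Ptprc, Hbb-bs and Tyr). The part of other cells in the results was not tested.

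Bases from the 250 before the RefSeq transcription start are shown for 4 of the genes, because their starts stood for the different patterns found: in an island of every library (Smad6), in islands of fiber only (Bmpr1a and Smad1) and with no island called near it in any library (Bmp4). They are from RefSeq on GRCm38.p6, all on the minus strand and written 5′ to 3′ in the direction of transcription. Each sequence was cut at the first base of an annotated exon before the RefSeq start. Those of Bmpr1a and Smad1 thus end after 109 and 160 bases and do not reach that start. The bases of Bmpr1a lie inside the gene body used for the islands. Capitals mark the 2 Smad-binding sequences searched for, GGCGCC and the palindrome GTCTAGAC, each of which reads the same on both strands. They do not overlap each other in these sequences.
Smad6, chr9:64022056-64022309: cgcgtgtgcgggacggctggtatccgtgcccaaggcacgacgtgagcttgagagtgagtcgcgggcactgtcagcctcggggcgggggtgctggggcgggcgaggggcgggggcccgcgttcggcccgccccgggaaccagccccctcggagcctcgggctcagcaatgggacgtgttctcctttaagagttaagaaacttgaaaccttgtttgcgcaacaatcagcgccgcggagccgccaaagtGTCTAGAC
Bmpr1a, chr14:34502688-34502796: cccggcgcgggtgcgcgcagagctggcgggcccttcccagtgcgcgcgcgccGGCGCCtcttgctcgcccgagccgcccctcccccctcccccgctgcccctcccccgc
Smad1, chr8:79399519-79399678: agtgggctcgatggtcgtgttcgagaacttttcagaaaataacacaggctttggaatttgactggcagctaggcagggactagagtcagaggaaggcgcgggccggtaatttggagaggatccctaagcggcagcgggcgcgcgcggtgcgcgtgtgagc
Bmp4, chr14:46390670-46390919: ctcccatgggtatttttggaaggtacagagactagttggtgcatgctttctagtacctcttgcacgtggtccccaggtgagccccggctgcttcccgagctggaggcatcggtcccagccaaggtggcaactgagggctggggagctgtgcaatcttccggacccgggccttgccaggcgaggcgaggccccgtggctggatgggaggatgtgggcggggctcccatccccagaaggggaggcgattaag

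Among 32841 RefSeq promoters of 250 bases before and 50 bases after the start, 8 of the 10 genes were matched. The palindrome occurred in 1 of the 8, Smad6, where it begins 4 bases before the start and crosses it, and in 0.213% of all promoters (70 of 32841). The sequence GGCGCC stood 198 bases before the RefSeq start of Bmpr1a, and 9.59% of all promoters held it before the start. In Smad5 the same sequence lay 24 bases after the start, and 11.9% of all promoters held it anywhere in their 300 bases.

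The 8 promoters differed widely in base composition. Bmpr1a and Acvr1 had the most CpG dinucleotides before the start, 36 and 46 in 250 bases, with G and C at 78.8% and 85.6% of bases. Smad1, Smad5 and Smad6 held 25, 22 and 27 CpG, Bmp4 and Tgfbr2 held 11 and 12, and Bmpr1b held 1, beside a median of 6 over all promoters. The start of Bmpr1b in the RefSeq table lies 187161 bp from the start of the gene in the annotation used for the islands, and that of Bmpr1a lies 795 bp from it.

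The comparison of compartments asked where newborn epithelium and fiber carried H3.3 islands at these genes. Coverage was larger in both fiber libraries than in both epithelium libraries at 7 of the 10 genes, Bmpr1a, Acvr1, Tgfbr2, Smad1, Smad4, Smad5 and Smad6, and smaller at none, but after division by the coverage of the genome in each library it was larger at 4 (Bmpr1a, Acvr1, Smad4 and Smad5) and smaller at 2 (Bmp7 and Smad6). At Bmp7 and Smad6, full coverage in fiber could not have reached the mean scaled share of epithelium, which fixed the sign of those differences. Over all protein-coding genes, 45.0% were covered more in both fiber libraries and 0.67% less, and 21.6% and 14.6% after that division. Among the 15488 genes whose windows were within the range of the 10 genes' windows, 17150 to 342290 bp, 50.4% were covered more in both fiber libraries. The median difference, fiber minus epithelium, was 16.1 percentage points over the 10 genes, 4.72 over all genes and 6.69 over those with windows in that range. An exact two-sided permutation test of 2 libraries against 2 draws on 6 splits, so that its smallest possible p is 0.33, and each gene without overlap between the compartments had that p. Of the 14147 protein-coding genes with an island in any library, 69.8% were covered more in both fiber libraries, and 8 of the 10 genes were among these 14147.

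**Figure D1:**
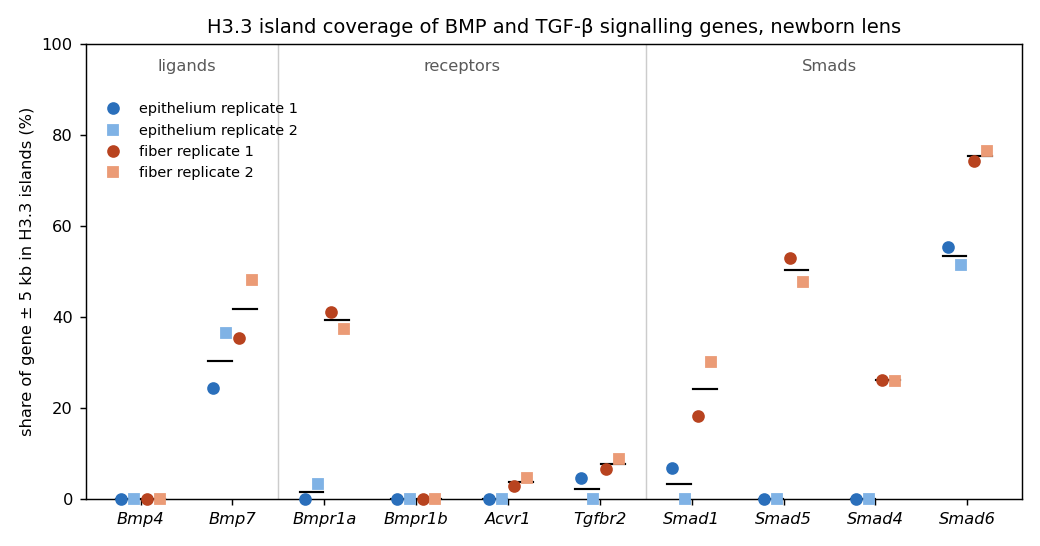
Share of each gene and 5 kb on each side that lay in H3.3 islands, in percent, for each of the 4 libraries, with black lines for the mean of the 2 libraries of a compartment. Smad6 and Bmp7 were covered in all libraries, Smad4, Smad5 and Acvr1 in fiber libraries alone, and Bmp4 and Bmpr1b in none.

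The ligands differed from each other. Bmp7, a secreted BMP that is needed for eye and kidney development, lies at chr2:172868012-172940321 on the minus strand and was covered in every library. Islands took up 24.3% and 36.4% of its window in epithelium and 35.5% and 48.1% in fiber. The second epithelium library lay above the first fiber library, so that the compartments overlapped, with means of 30.4% ± 8.60 and 41.8% ± 8.93 (SD, n = 2 each). The difference was 17.5 percentage points without epithelium replicate 2 and 17.7 without fiber replicate 1, where the compartments did not overlap, and 5.35 without epithelium replicate 1 and 5.11 without fiber replicate 2, where they did. Relative to the coverage of the genome, the window of Bmp7 was covered 14.6 and 20.3 times as much in epithelium and 5.44 and 6.98 times as much in fiber, so that the direction reversed. The mean of those epithelium values lay above what full coverage in fiber could give, which fixed that sign.

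The islands of Bmp7 differed between compartments in the longest island and on the side of the start, but their places also differed between the epithelium replicates. Of the bases covered in either epithelium library, 19.6% were covered in both, and in fiber that share was 59.3%. Epithelium had 5 and 12 islands of at most 7000 and 6200 bp, and fiber had 5 and 7 islands of at most 11200 and 19400 bp. The longest of them ran in fiber replicate 2 from position -2879 to 16520 bp relative to the start, held 628 reads, and ranked 562nd by length among the 35940 islands of that library. From the start to the midpoint of the gene body, islands covered 34.9% and 41.9% in epithelium and 62.3% and 62.8% in fiber. From the midpoint to the end, the shares were 17.6% and 40.3% in epithelium and 11.6% and 29.8% in fiber. The larger coverage of fiber was thus on the side of the start, and the far side overlapped between compartments. The start itself was in an island of epithelium replicate 2 and of both fiber libraries, and the nearest island of epithelium replicate 1 began 2321 bp inside the gene.

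Bmp4, a BMP needed for induction of the lens, lies at chr14:46383520-46390669 on the minus strand. It had no called island in any library. The nearest island was 364132 and 284332 bp from its window in epithelium and 262532 and 16132 bp from it in fiber. Its window also holds the coding gene Gm15217.

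Among the receptors, Bmpr1a, a type I receptor that binds BMPs and phosphorylates Smad1 and Smad5, differed most between compartments. It lies at chr14:34410734-34503341 on the minus strand, and its window was covered by 0% and 3.18% in epithelium and by 41.1% and 37.4% in fiber. The mean difference of 37.7 percentage points stood at percentile 87.2 among all protein-coding genes. In equal-sized sets of islands it was 1.85 when islands were taken by density, and 13.4 when they were taken by read count, without overlap. The value by density came from a single fiber library, the other having no coverage left, like epithelium. Fiber replicate 1 had 7 islands and fiber replicate 2 had 9, of which the longest measured 10200 and 7200 bp. In both fiber libraries an island began at position -2659 relative to the start and ran past it, to 7540 bp in replicate 1 and 3540 bp in replicate 2, so that the first exon and the bases printed above lay in H3.3 islands of fiber only. The epithelium had a single island at the locus, in replicate 2, of 4200 bp with 101 reads, and it lay wholly downstream of the gene, 94341 to 98540 bp from the start. It shared no base with any fiber island.

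The bases of Bmpr1a that both fiber libraries covered made up 25.5% of its window, and those of 1 fiber library made up 27.4%. Coverage fell off along the gene, with 69.3% and 61.6% from the start to the midpoint and 16.1% and 15.2% from there to the end. The exons were covered by 56.1% in fiber replicate 1 and 14.3% in replicate 2, whereas the introns were covered by 41.7% and 40.2%. Of the bases covered in either fiber library, 48.2% were covered in both.

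Bmpr1b, the type I receptor closest to Bmpr1a, lies at chr3:141837136-142169425 on the minus strand and is the longest of the 10 genes, at 332290 bp. It had no called island in any library. The nearest islands were 594376 and 612776 bp from its window in epithelium and 219576 and 10536 bp from it in fiber. Its window also takes in part of Unc5c. The 2 genes without an island, Bmp4 and Bmpr1b, stood beside 35.5% of all protein-coding genes, and 29.0% of those with windows of similar length.

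Acvr1, a type I receptor shared by several BMPs, lies at chr2:58388644-58567157 on the minus strand. It had no called island in epithelium and a coverage of 2.86% and 4.67% in fiber. Fiber replicate 1 had 1 island of 5400 bp with 149 reads, in an intron 30957 to 36356 bp from the start. Fiber replicate 2 had 4 islands of at most 2600 bp, of which a pair, at 31757 and 35757 bp, overlapped that island of replicate 1. The bases covered in both fiber libraries came to 2600 bp. A further island of replicate 2 began 357 bp after the start and touched an exon. Acvr1 was the least covered of the 8 genes that had an island, its difference of 3.77 percentage points was below the median over all genes and lost its separation of the compartments in equal-sized sets of islands, and its window also holds Upp2 and Gm17409.

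Tgfbr2, the type II receptor for TGF-β, lies at chr9:116084293-116175360 on the minus strand. Its window was covered by 4.55% and 0% in epithelium and 6.53% and 8.71% in fiber, a difference of 5.34 percentage points that changed sign, to -0.235 times the genome's coverage, when each library was scaled by the genome. Without epithelium replicate 2, the library with no island, the difference was 3.07 percentage points. All its islands were intronic and none reached the start. An intronic site between 71160 and 75759 bp from the start was the one place at which epithelium and fiber islands of Tgfbr2 met. There, epithelium replicate 1 had an island of 4600 bp with 96 reads, fiber replicate 1 one of 2600 bp with 87 reads, and fiber replicate 2 one of 2200 bp with 68 reads. The epithelium island was thin, with 20.9 reads per kb at percentile 0.164 of its library, and the fiber islands had 33.5 and 30.9 reads per kb, at percentiles 88.0 and 74.0 of theirs. They also differed in length, at percentile 66.4 of its library for the epithelium island and 4.78 and 7.82 for the fiber islands.

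**Figure D2:**
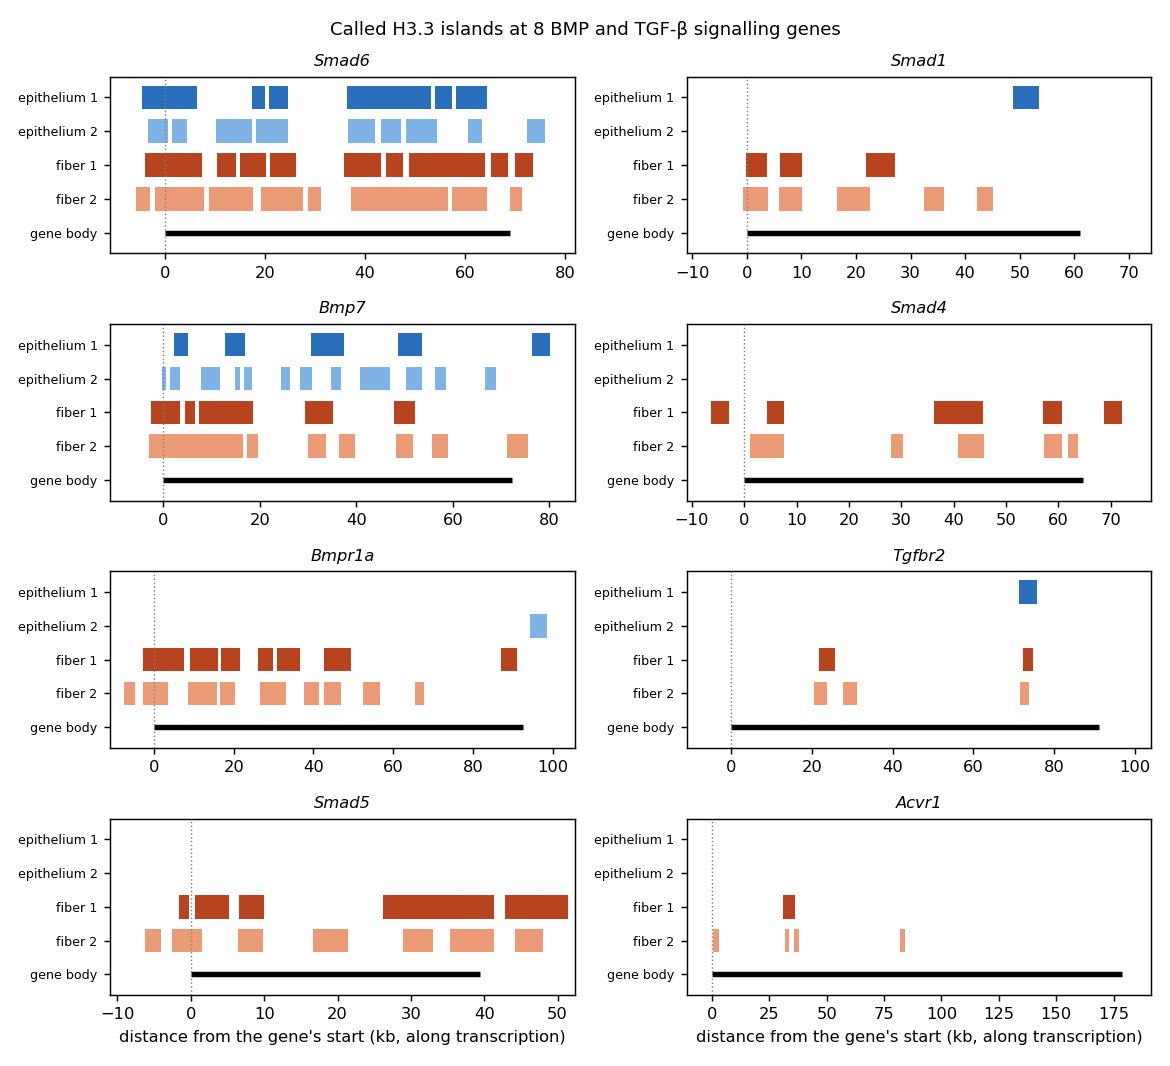
Position of every island at the 8 genes that had one, in kb from the gene's start in the direction of transcription (horizontal axis, a different scale for each gene), with 1 row per library and the gene body in black. Smad6 carried islands over most of its length in all 4 libraries, the starts of Bmpr1a and Smad1 lay in fiber islands only, and the few islands of Acvr1 and Tgfbr2 lay inside the genes.

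All 4 Smads were covered more in both fiber libraries, beside 45.0% of all protein-coding genes, a count from which Smad6 and Smad1 dropped out when each library was scaled by its coverage of the genome, beside 21.6% of all genes. Smad5, which carries BMP signals to the nucleus, had the largest difference of the 10 genes. It lies at chr13:56703010-56742377 on the plus strand and had no called island in epithelium, where the nearest islands were 16410 and 42010 bp from its window. In fiber, 5 and 7 islands covered 53.0% and 47.7% of the window, a mean of 50.4% ± 3.74 (SD, n = 2), at percentile 93.6 of the differences of all genes. In equal-sized sets of islands the difference was 2.42 percentage points by density, without overlap of the compartments. By read count it was 17.0, which came from a single fiber library, the other having no coverage left, like epithelium.

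The exons of Smad5 were covered more evenly between the fiber replicates than its introns, with 79.7% and 79.9% of exon bases and 47.8% and 37.1% of intron bases. The longest island, in fiber replicate 1, measured 15200 bp, held 345 reads over 4 exons at the 3′ end and ran past the gene's end. At the start, fiber replicate 2 had an island from position -2609 to 1590 bp relative to it. Fiber replicate 1 had an island on each side and none over it, one of 1400 bp that ended at position -210 and one that began 591 bp after the start. That upstream island had 42.9 reads per kb, at percentile 99.2 of its library, and was among its shortest, at percentile 0.181 by length.

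Smad1, which acts in parallel with Smad5, lies at chr8:79338395-79399518 on the minus strand. Its window was covered by 6.75% and 0% in epithelium and by 18.3% and 30.1% in fiber, a difference of 20.8 percentage points. It turned to -3.37 in equal-sized sets of islands, chosen either by density or by read count. Those sets took their size from epithelium replicate 1, which kept all its islands, and held no fiber island of Smad1. The reversal thus came from 1 island of epithelium replicate 1, at percentile 4.03 of its library by density. The start lay in an island of both fiber libraries, of 3800 bp with 102 reads in replicate 1 and 4600 bp with 130 reads in replicate 2, and in no island of epithelium. A second site, in an intron 6118 to 10117 bp from the start, was covered in both fiber libraries. The single epithelium island, in replicate 1, was 4800 bp long with 112 reads and lay 48718 to 53517 bp from the start, where it touched an exon and no fiber island. It covered another annotated transcript start of Smad1. None of the bases of Smad1 covered in epithelium were covered in fiber.

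Smad4, the partner that BMP and TGF-β Smads share, lies at chr18:73639009-73703780 on the minus strand. It had no called island in epithelium, whereas 5 islands in each fiber library covered 26.2% and 25.9% of its window. The total share was thus close between the fiber replicates, although 42.4% of the bases covered in either were covered in both. The difference of 26.1 percentage points stood at percentile 78.4 of all genes, and it was 5.08 and 10.6 in equal-sized sets by density and by read count, without overlap of the compartments in either. The annotated start of the gene was in no island, but a downstream transcript start was, in both fiber libraries. Islands at 3 places met between the fiber replicates, at 4380 to 7579, 40780 to 45579 and 57180 to 60779 bp from the start, and together the bases in both came to 11600 bp.

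Smad6, the inhibitory Smad of the BMP branch, lies at chr9:63953076-64022059 on the minus strand and was the most covered of the 10 genes in every library. Islands took up 55.5% and 51.3% of its window in epithelium and 74.2% and 76.5% in fiber, with means of 53.4% ± 2.93 and 75.4% ± 1.66 (SD, n = 2 each). The difference of 22.0 percentage points became -19.7 times the genome's coverage when each library was scaled by the genome, since the window was covered 33.3 and 28.6 times as much as the genome in epithelium and 11.4 and 11.1 times as much in fiber. Its start was the only one of the 10 inside an island of all 4 libraries, with the palindrome printed above, beside 6.16% of all protein-coding genes. Of the bases covered in epithelium, 99.4% were also covered in fiber, and 32.7% of the window was covered in all 4 libraries. The additional fiber coverage was mostly of bases that 1 fiber library covered, 15.5% of the window, with a further 6.08% that both did.

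The number and length of the islands of Smad6 did not separate the compartments. Epithelium had 6 and 9 islands and fiber had 9 and 8, the longest of 16800 and 7200 bp in epithelium and of 15200 and 19400 bp in fiber. The island of 16800 bp lay in an intron 36459 to 53258 bp from the start, held 489 reads and ranked 42nd by length among the 10389 islands of epithelium replicate 1. The islands of 15200 and 19400 bp of the fiber libraries overlapped it.

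**Figure D3:**
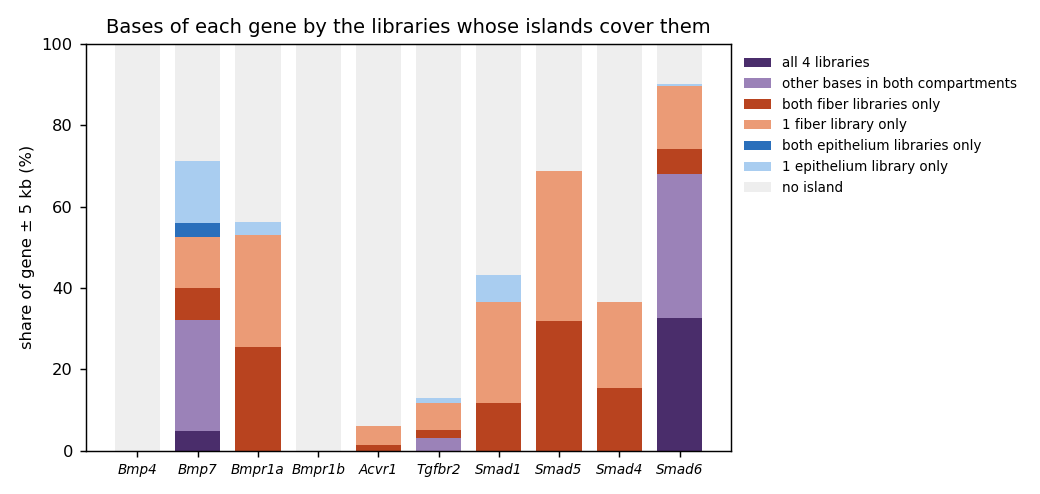
Bases of each gene and 5 kb on each side, in percent of the window, by the libraries whose islands covered them. Smad6 and Bmp7 held the bases common to all 4 libraries, 32.7% and 4.86% of their windows, and at Bmpr1a, Smad1, Smad4, Smad5 and Acvr1 no base was covered in both compartments.

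In order of the mean share in fiber, Smad6 was followed by Smad5, Bmp7, Bmpr1a, Smad4, Smad1, Tgfbr2 and Acvr1. The fiber values of Smad5 and Bmp7, of Bmp7 and Bmpr1a, and of Smad4 and Smad1 overlapped and did not differ beyond their spread. In epithelium the order was set by Smad6 and Bmp7 alone, the values of the other genes lying between 0% and 6.75%. Genes with an island in both fiber libraries and in no epithelium library were 3 of the 10 (Acvr1, Smad4 and Smad5), beside 15.2% of all protein-coding genes and 17.8% of those with windows of similar length.

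The start of the gene was in an island of both fiber libraries and of no epithelium library at 2 of the 10 genes, Bmpr1a and Smad1, beside 15.6% of all protein-coding genes. It was in no island of any library at 5 of the 10 (Bmp4, Bmpr1b, Acvr1, Smad4 and Tgfbr2), beside 52.0% of all genes. Both counts were near those of all genes. When any annotated transcript start counted, the fiber-only genes were 3, Bmpr1a, Smad4 and Smad5. Smad1 was not among them, since its epithelium island covered a transcript start. Within 1 kb of the start they were 3 as well, Bmpr1a, Smad1 and Smad5. The share of all genes was not computed for these alternatives.

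The longest island was longer in both fiber libraries than in both epithelium libraries at 6 of the 10 genes (Bmp7, Bmpr1a, Acvr1, Smad1, Smad4 and Smad5), beside 44.2% of all genes, and shorter at none, beside 0.506%. For Bmp7 the mean of the longest island was 6600 bp in epithelium and 15300 bp in fiber, a ratio of 2.32. For Smad1 it was 2400 and 5600 bp, a ratio of 2.33 that includes a library without an island. At Smad6 and Tgfbr2 the values overlapped.

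Read density inside the islands differed far less than coverage. Islands were called for their enrichment in reads, which bounds this density from below, and the part of that in the similarity was not tested. Pooled over the genes with islands, these held 29.5 and 29.0 reads per kb in epithelium, from 13 and 22 islands of 4 and 3 genes. In fiber they held 26.6 and 27.0 reads per kb, from 37 and 48 islands of 8 genes. The pools thus differ in genes, and in epithelium 5 and 12 islands were of Bmp7 and 6 and 9 of Smad6. Per gene, the ratio of fiber to epithelium was above 1 at Bmpr1a (1.04), Smad1 (1.07) and Tgfbr2 (1.30), each with 1 epithelium island. It was below 1 at Bmp7 (0.995) and Smad6. Bmp7 and Smad6 were the genes with an island in every library. Bmp7 had 30.4 and 29.5 reads per kb in epithelium and 30.8 and 28.8 in fiber, which overlapped. Smad6 had 30.7 and 29.1 reads per kb in epithelium and 28.3 and 27.9 in fiber, lower in both fiber libraries, with a ratio of means of 0.942. Such a lower density was found in 16.3% of the 5246 protein-coding genes with an island in every library, and a higher one, found at neither Bmp7 nor Smad6, in 30.8%. The islands that carried the most reads per kb were short ones of Bmp7 in epithelium replicate 2, of 800 bp at the start with 46.2 reads per kb and of 1000 bp in an intron with 45.0 reads per kb.

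**Figure D4:**
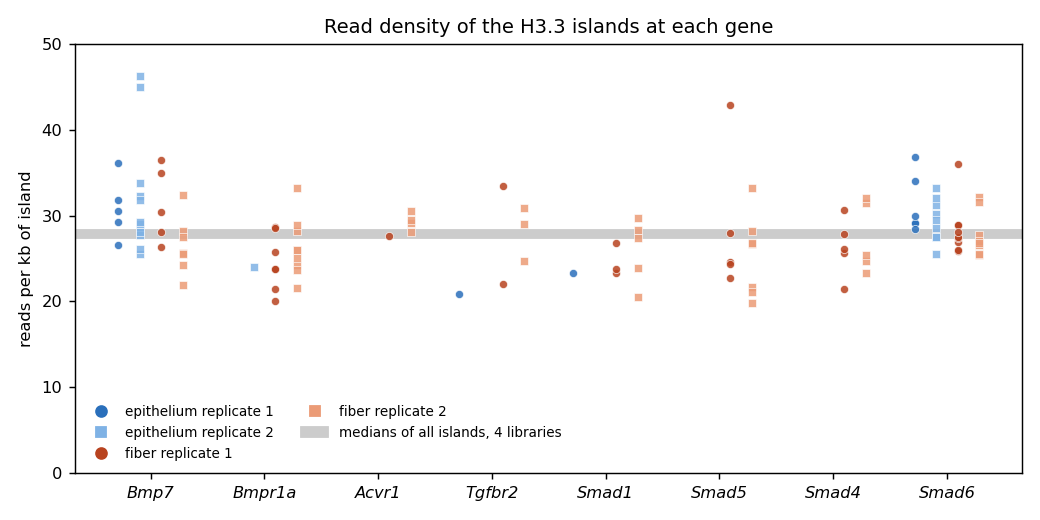
Reads per kb of each island at the 8 genes with islands, 1 point per island and library, with a grey band from the lowest to the highest of the 4 libraries' medians over all islands (27.4 to 28.3 reads per kb). The points of both compartments lay between 19.8 and 46.2 reads per kb and scattered around the band.

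A further 54 genes of both pathways, listed by role, were counted in the same way. Of these, 33 were covered more in both fiber libraries and none less, beside 45.0% and 0.67% of all protein-coding genes, but after scaling by the coverage of the genome 9 were covered more and 13 less, beside 21.6% and 14.6% of all genes. Those 13 include genes, such as Id1, Id3 and Crim1, whose scaled epithelium values lay above the ceiling of fiber and allowed no other outcome. The unscaled counts were 6 of 14 ligands, 8 of 11 receptors and coreceptors, 4 of 4 Smads, 9 of 15 modulators and 6 of 10 targets. After scaling, 2 ligands were covered more and 3 less, 3 receptors more and 3 less, 1 Smad more and 2 less, 3 modulators more and 2 less, and 0 targets more and 3 less. The median difference over the 54 genes was 13.05 percentage points.

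Acvr2b, a type II receptor for activins and BMPs, had the largest difference of the list, 68.5 percentage points. Its window was covered by 0% and 19.1% in epithelium and by 82.7% and 73.4% in fiber, without overlap, whereas the scaled shares, 0 and 10.7 times the genome's coverage in epithelium and 12.7 and 10.7 times in fiber, overlapped. Id2, a transcriptional regulator that BMP Smads induce, was covered by 31.5% and 0% in epithelium and 73.5% and 93.99% in fiber, and its scaled shares, 18.9 and 0 times in epithelium and 11.3 and 13.6 times in fiber, overlapped as well. Bmper, a secreted protein that binds BMPs, had no called island in epithelium and a coverage of 54.2% and 57.7% in fiber, from 23 and 25 islands spread over 262125 bp of gene. Crim1, a membrane protein with BMP-binding repeats, was covered by 38.7% and 48.7% in epithelium and 96.2% and 98.3% in fiber. Its direction reversed when libraries were scaled by the genome, as the ceiling of fiber required, with scaled shares of 23.3 and 27.2 times in epithelium.

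The inhibitory Smad7, a counterpart of Smad6, was covered by 29.5% and 49.99% in epithelium and 72.7% and 84.4% in fiber, and its direction also reversed under that scaling. The TGF-β mediators Smad2 and Smad3 differed from each other in epithelium, where Smad2 had no called island and Smad3 was covered by 40.6% and 35.3%. In fiber, Smad2 was covered by 24.9% and 27.9% and Smad3 by 71.8% and 70.9%, and scaling reversed the direction for Smad3 and not for Smad2. The scaled epithelium values of Smad3 and Smad7 all lay above the ceiling of fiber, which fixed their reversals. The window of Smad3 overlaps the coding gene Aagab. The choice to name Smad2, Smad3 and Smad7 was made with their values in view.

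The genes of the list nearest to Smad5 in their coverage of the 4 libraries were Bmper, Bmp8a and Smurf1, with Euclidean distances of 10.1, 11.5 and 20.8 percentage points. Bmp8a, a BMP ligand whose window also holds Oxct2a, was covered by 0% and 2.96% in epithelium and 45.7% and 39.4% in fiber. Smurf1, a ubiquitin ligase that acts on BMP Smads, was covered by 6.84% and 14.1% in epithelium and 42.1% and 39.7% in fiber, and its scaled shares overlapped.

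**Figure D5:**
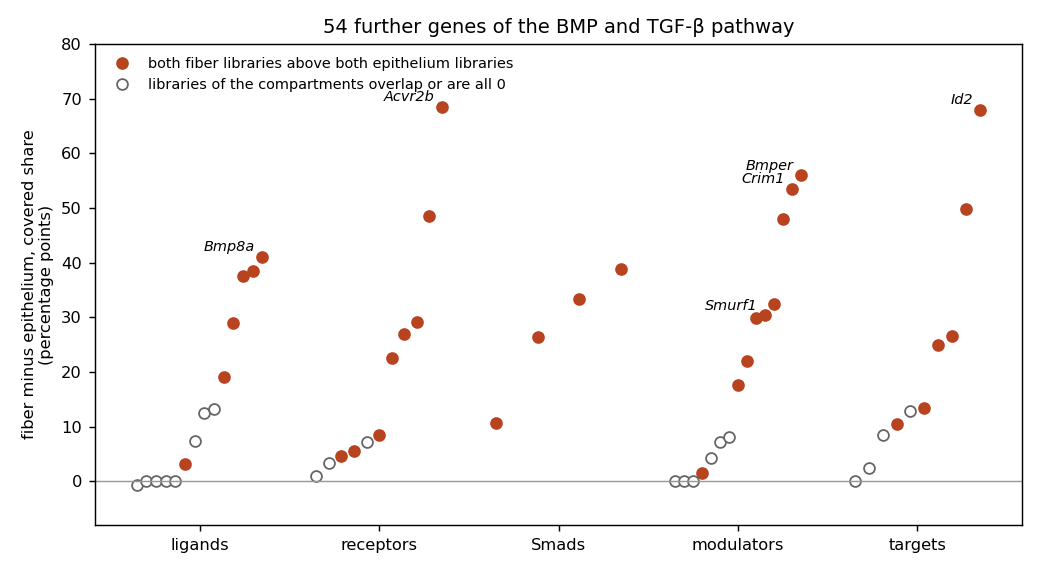
Difference in covered share, fiber minus epithelium in percentage points, for the 54 further genes by role, with filled points where both fiber libraries lay above both epithelium libraries. The differences reached 68.5 percentage points (Acvr2b), and open points lay at or below 13.3.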

How the data were processed

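The data are 4 lists of H3.3 ChIP-seq islands from newborn lens, 2 of epithelium and 2 of fiber. Reads (75 nt, single-end) had been aligned by the authors to mm10 (GRCm38) with BWA, and islands had been called per library with SICER2 (window 200 bp, gap 600 bp, false discovery rate 0.01). Each deposited row holds a position and a read count without normalization. Tool versions, duplicate removal and the role of the pooled input are not given in the sources used here. Counts in islands are not depths, which are unknown, so that no interval was computed and the number of libraries limits the precision.

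For each gene of GENCODE vM21, the share of the gene body and 5 kb on each side in islands, the longest island, the reads per kb and the state of the gene's start were computed in Python 3.11.15 with numpy 2.4.6, pandas 2.3.3, scipy 1.17.1 and matplotlib 3.10.9. Covered lengths were checked against bedtools 2.31.1, and the steps were tested on simulated data. A gene counted as higher or lower where both libraries of one compartment lay on the same side of both of the other. The scaled share is the covered share divided by the share of the genome in islands of that library. All 10 genes are named, with the 4 genes of the wider list with the largest differences in each direction without overlap (none was lower) and the 3 nearest to Smad5. The 10 genes and all lists were chosen with earlier results of these data known, so that counts over them are descriptions. Promoter bases came from RefSeq on GRCm38.p6. Neither the 12 bisulfite libraries nor the input was analysed here.

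The alternatives were gene bodies alone, 10 kb on each side, islands found in both replicates, of at least 600 bp or of at least the median density, equal numbers of islands (10389 per library), merging within 1 kb, any transcript start or 1 kb around the start, scaling by the genome or by the total in islands, the replicate block, and leaving out each library, which was added for the gene starts after seeing the data.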

Additional observations from a re-analysis of the deposited data

How the results depend on the processing

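With the 10389 islands of highest density from every library, 2 of the 10 genes (Smad4 and Smad5) were covered more in both fiber libraries, the median difference was 0.0495 percentage points, 13 genes of the wider list were covered more and 3 less, and 15.6% of all protein-coding genes were covered more. With the same number by read count the values were 2 (Bmpr1a and Smad4), 0.0, 18 and 21.4%. Scaling by the genome gave 4 genes, a median of 0.279 times the genome's coverage, 9 genes of the wider list and 21.6% of all genes. Islands of at least the median density gave a median of 4.65 percentage points.

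The direction reversed for Bmp7 (-3.15), Smad1 (-3.37) and Smad6 (-26.5) with equal numbers by density, for Bmp7 (-2.18), Smad1 (-3.37) and Tgfbr2 (-2.28) with equal numbers by read count, for Smad6 (-5.70) with islands of at least the median density, and for Bmp7 (-11.3), Smad6 (-19.7) and Tgfbr2 (-0.235) under scaling by the genome. Only Smad4 kept its direction and its separation of the compartments under all 13 alternatives among the genes with an island. Of these alternatives, the replicate block and leaving out a library could not undo a separation. The cause of these changes was not tested beyond their construction, which lowers the number of fiber islands or divides by their extent. The equal-sized sets kept all islands of epithelium replicate 1. At Smad1, and at Tgfbr2 by read count, no fiber island remained and the value came from 1 epithelium island. Under scaling, the reversals of Smad6 and Bmp7 were fixed by the ceiling of fiber, which lay below the mean scaled epithelium value of each.

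The median ratio of reads per kb, fiber over epithelium, was 1.04 over 5 genes, 2.19 when reads were counted per kb of the whole window, and 0.273 when counts were divided by the total in islands.

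Leaving out each library gave 7 to 8 genes covered more in fiber, a median of 10.01 to 20.5 percentage points (10.01 without fiber replicate 2), 35 to 42 genes of the wider list, 47.7% to 54.7% of all genes, 6 to 8 genes with a longer island, 2 to 3 starts and a density ratio of 1.01 to 1.09. With the replicate block, in which libraries of the same number were paired, 8 of the 10 genes (with Bmp7), 36 of the wider list and 47.0% of all genes were higher in fiber. A gene separated in all libraries stays separated when a library is left out or when libraries are paired. These counts and shares of genes could thus not fall below those of the main comparison, and they do not test it. Libraries with the same number did not deviate together (r = 0.00617 across 21938 genes, which are not independent replicates). With 2 libraries per compartment, this value cannot show whether those of the same number came from the same lenses.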

Other observations

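The BMP targets Id1, Id2 and Id3, transcriptional regulators that hold back differentiation factors, and the modulator Crim1 gave differences of the same sign whether all islands or equal numbers of islands were used. The difference of Smad6 was -26.5 percentage points with equal numbers by density and 1.95 by read count. Acvr2b, Tgif1 and Ski kept their sign as well. With equal numbers, 15.6% of all genes by density and 21.4% by read count were covered more in both fiber libraries. Other targets changed sign, Msx2 (-10.5) by density and Msx1 (-6.09), Ccn2 (-10.6) and Atoh8 (-12.1) by read count. With equal numbers by density, the differences were 42.9 for Id1, 68.0 for Id2, 13.5 for Id3 and 56.3 percentage points for Crim1, without overlap of the compartments, and under scaling by the genome they were negative for Id1, Id3 and Crim1. That sign was fixed, since the scaled epithelium values of Id1, Id3 and Crim1 all lay above the ceiling of fiber. Id1 was covered by 55.6% and 37.6% in epithelium and 100% and 92.8% in fiber, and Id3 by 89.4% and 77.9% in epithelium and 94.3% and 100% in fiber. Id4 was covered in fiber replicate 2 alone, by 25.7%. The genes of this paragraph other than Id2, Crim1, Acvr2b and Smad6 were named after their values were seen.

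Crim1 carried unusually long islands in fiber. A single island of fiber replicate 2 measured 136600 bp with 5363 reads and was the 3rd longest of that library, and the longest of fiber replicate 1 at the gene measured 57600 bp and was the 24th. The islands of Crim1 held 38.5 and 38.4 reads per kb in fiber and 28.2 and 28.4 in epithelium, whereas those of Bmper held 25.9 and 24.9 reads per kb in fiber. Endoglin (Eng), a TGF-β coreceptor, was covered by 35.2% and 31.8% in epithelium and by 56.6% and 17.1% in fiber, so that the fiber replicates lay on either side of both epithelium libraries. Crim1 shares its window with Fez2 and Eng shares its window with Fpgs. Eng was named after its values were seen.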
